A study of Mus musculus with 8 samples.

Results

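The coat and lipolysis genes of the lipid droplet were examined in liver of the obese NZO strain and the lean B6 strain. The group holds 10 genes, chosen by name: the perilipins Plin2, Plin3, Plin4 and Plin5, the CIDE genes Cidea, Cideb and Cidec, the lipases Pnpla2 and Lipe, and the lipase inhibitor G0s2. They are read by 12 of the 55681 probes of the array, each probe kept on its own. Liver RNA of 4 male NZO/HiBomDife mice and 4 male C57BL/6 mice was hybridised to 1-colour Agilent arrays, 1 array per mouse. All 8 mice were 6 weeks old and received a high-fat diet with 45% fat, so no mouse on another diet or of another age serves as a control. Mice are named by strain and the number in their label. Levels are log2 signals relative to the 75th percentile of the same array, which lay between 119 and 142 signal units in NZO and between 136 and 159 in B6. A level reads the change of a probe between mice, and the levels of different member probes are not compared. Signals of different probes are added up only for cell type markers, and the probe with the highest mean signal in the list is named beside each sum.

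Hepatocytes store triglycerides in droplets that are surrounded by a phospholipid monolayer. Perilipins sit on this surface and limit the access of lipases, CIDE proteins bring droplets together and move lipid between them, and triglycerides are cut to diglycerides by ATGL, encoded by Pnpla2, which is restrained by the protein of G0s2. The hormone-sensitive lipase, encoded by Lipe, then acts on diglycerides and does its main work in adipose tissue. Droplets grow in liver under high-fat feeding and fasting, and Plin2 is widely used as a marker of fatty liver.

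None of the 9 genes that could be tested passed between the strains, and Cidea was at background in both. A probe was tested if either strain had it well above background on each of its arrays, which held for 11 of the 12 probes, and these 11 were above background on all 8 arrays with 0 saturated spots. Of these, 0 passed an adjusted p of 0.05 (limma, Benjamini-Hochberg over 27639 probes), while 14.2% of all tested probes did. At an unadjusted p of 0.05 there was 1, the Plin5 probe, and the methods' t-test likewise called 0 after adjustment and 1 before. The methods' thresholds are a p of 0.05 together with a log2 fold change of 0.7. With this p taken as unadjusted, they were met by 0 of the 11 probes and by 12.2% of all probes. The median difference of the 11 probes was 0.09 on the log2 scale, with 8 above 0 and 3 below, against 0.01 over all tested probes. The median size of the difference, whatever its sign, was 0.21 for the 11 probes and 0.24 for all probes.

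**Figure D1:**
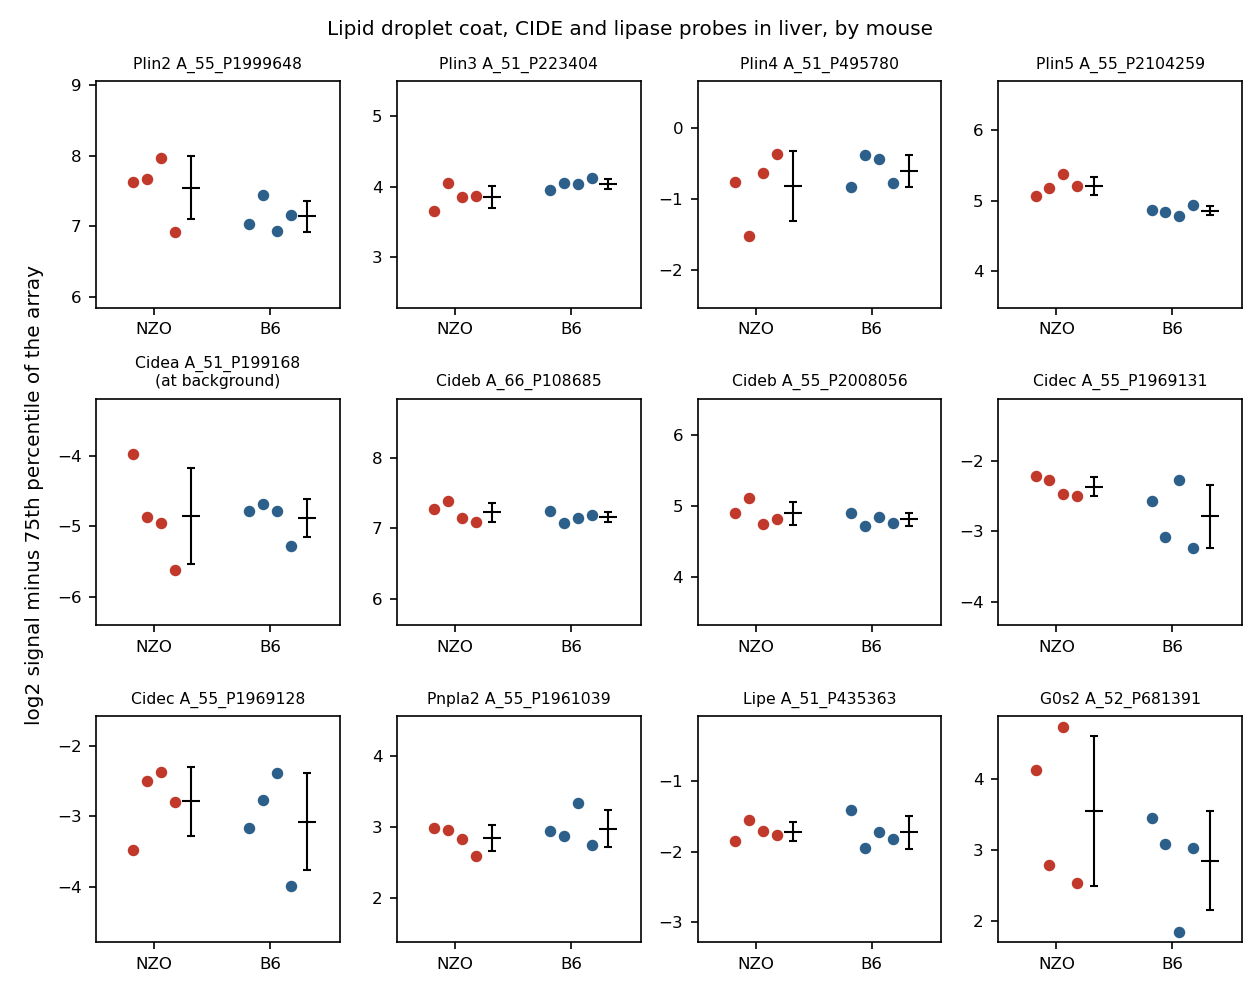
Level of each of the 12 probes by mouse (y axis: log2 signal minus the 75th percentile of the array, with the same span in each panel; points from left to right NZO 007, 003, 009 and 011, then B6 011, 010, 015 and 009; bars: mean and SD, n = 4). The Plin5 points of the strains do not overlap, those of the 10 other tested probes do, and the G0s2 points of NZO spread the most.

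Of the sequences of these probes, 4 are shown because an open reading frame recognised in their letters places them in, or reaching into, the protein-coding part of the transcript. No annotation of coding positions was used, and "coding probe" below rests on this reading. They are given as the array files list them, 5′ to 3′ on the sense strand, with positions on mm9, the build named in the files, and for G0s2 the probe starts shortly before the start codon. The probe of G0s2 lies at chr1:195098925-195098984, that of Cideb at chr14:56373658-56373717, that of Cidec at chr6:113378116-113378175 and that of Lipe at chr7:26165828-26165887.
G0s2 A_52_P681391: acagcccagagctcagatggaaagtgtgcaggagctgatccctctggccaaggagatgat
Cideb A_55_P2008056: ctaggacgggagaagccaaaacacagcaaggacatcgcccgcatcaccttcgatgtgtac
Cidec A_55_P1969128: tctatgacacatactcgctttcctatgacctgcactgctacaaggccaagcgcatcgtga
Lipe A_51_P435363: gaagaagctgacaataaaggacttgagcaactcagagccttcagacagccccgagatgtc
The 60 bases of each are between 50% and 55% G and C.

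Plin2 coats droplets in nearly all cells and is the main perilipin of hepatocytes. Its level was 7.62, 7.66, 7.97 and 6.92 in NZO 007, 003, 009 and 011, and 7.03, 7.44, 6.93 and 7.17 in B6 011, 010, 015 and 009. Hence, 3 of the 4 NZO mice lay above all B6 mice, and NZO 011 lay below every B6 mouse. The difference was 0.40 ± 0.23 on the log2 scale (SE, n = 4 and 4), a 1.32-fold higher mean in NZO with a 95% interval from 0.924 to 1.89, and it missed the threshold (limma, adjusted p = 0.290). Without NZO 011 it was 0.61 with an adjusted p of 0.0526 (limma), the lowest value among the alternatives, which reached up to 0.626, and without NZO 009 it was 0.26 (adjusted p = 0.485). On the only slide that held both strains, NZO 003 was 0.48 above the mean of B6 010 and B6 015.

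Plin5 binds ATGL and links droplets to mitochondria, and is found in tissues that burn fatty acids. The level of its probe was 5.07, 5.17, 5.38 and 5.21 in the NZO mice and 4.87, 4.84, 4.79 and 4.94 in the B6 mice, in the order given for Plin2. All NZO mice lay above all B6 mice. Among all tested probes, 22.0% showed such a separation of the strains in either direction. The difference was 0.35 ± 0.10 (SE), a 1.27-fold higher mean in NZO with a 95% interval from 1.09 to 1.49. The adjusted p was 0.0508 (limma, unadjusted 0.00727), and over the alternatives it ran from 0.0396 to 0.421. It passed in 2 of them: 0.0478 when only probes above background on all 8 arrays were tested, and 0.0396 without NZO 007. On the slide with both strains, the difference was 0.36.

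**Figure D2:**
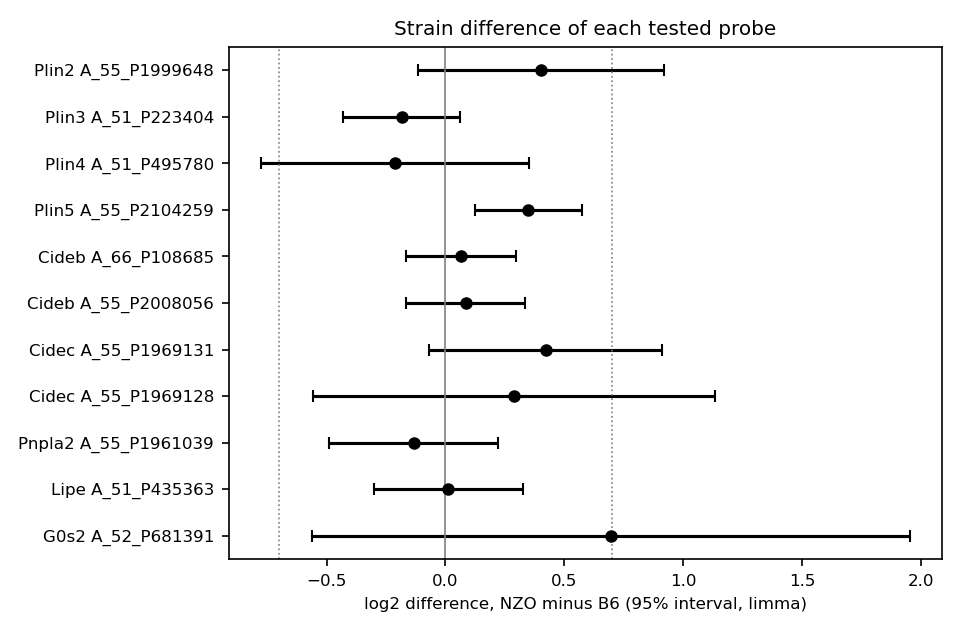
Log2 difference between NZO and B6 (x axis) for the 11 tested probes (y axis), with the 95% interval of limma; dotted lines mark 0.7 in either direction. The interval of Plin5 alone does not reach 0, before any adjustment for the number of probes, and that of G0s2 is the widest.

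Plin3, which is soluble and moves to newly formed droplets, was at 3.66, 4.05, 3.85 and 3.86 in NZO and at 3.95, 4.06, 4.03 and 4.11 in B6. The strains overlapped through NZO 003, while the other NZO mice lay below all B6 mice. The difference was -0.18 ± 0.11 (limma, adjusted p = 0.310), and it was 0.0043 on the slide with both strains. Without NZO 007 it was -0.12, and without NZO 003 it was -0.25. Plin4, known best from adipose tissue and muscle, was at -0.76, -1.52, -0.64 and -0.36 in NZO and at -0.83, -0.38, -0.44 and -0.78 in B6. NZO 003 was the lowest and NZO 011 the highest of all 8 mice, and the strains overlapped. The difference was -0.21 ± 0.25 (limma, adjusted p = 0.620), and it came to 0.02 without NZO 003 and to -1.11 on the slide with both strains, where NZO 003 is the only NZO mouse and is taken to vary like the B6 mice (limma, adjusted p = 0.0864). Plin4 and Plin5 are neighbours on chromosome 17 (GRCm38.p6, RefSeq: Plin4 at chr17:56100587-56109948, Plin5 at chr17:56111597-56117606), 1648 bases apart, and Plin3 follows 161355 bases further on. The 3 neighbours gave differences of either sign, and 0 of their probes passed.

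Cidea, known from brown fat and from fatty liver, was not well above background on any of the 8 arrays, so no fold is given for it. Cideb, the CIDE gene of hepatocytes with a role in the lipidation of VLDL, has 2 probes. Its probe A_66_P108685 was at 7.27, 7.39, 7.15 and 7.09 in NZO and at 7.25, 7.07, 7.15 and 7.18 in B6. Its coding probe, printed above, was at 4.90, 5.12, 4.75 and 4.81 in NZO and at 4.91, 4.72, 4.85 and 4.76 in B6. On both probes NZO 003 was the highest mouse and the strains overlapped. The differences were 0.07 and 0.09, with 95% intervals of the fold from 0.892 to 1.23 and from 0.892 to 1.26 (limma, adjusted p = 0.715 and 0.658), and without NZO 003 they were 0.010 and 0.011. On the slide with both strains, where NZO 003 is the only NZO mouse, they were 0.28 and 0.33.

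Cidec, which fuses droplets in adipocytes and is induced in fatty liver, also has 2 probes, and both were dim. The coding probe was at -3.47, -2.50, -2.38 and -2.80 in NZO and at -3.16, -2.77, -2.38 and -3.99 in B6. On this probe the lowest mice were B6 009 and NZO 007, and the strains overlapped. The probe A_55_P1969131 was at -2.22, -2.28, -2.47 and -2.51 in NZO and at -2.57, -3.09, -2.27 and -3.23 in B6. Here, NZO 007 was the highest mouse, and B6 015 alone reached the NZO range. The differences were 0.29 ± 0.37 and 0.42 ± 0.21 (SE; limma, adjusted p = 0.658 and 0.246). The former came to -0.02 without B6 009, and the latter to 0.28 without B6 009 and to 0.59 without B6 015. On the slide with both strains the differences were 0.074 and 0.40, and that of the coding probe was 0.046 with the scan day as a term and 0.99 with mouse numbers taken as a replicate block. In scanner units, the Cidec signals ran from 9.81 to 28.2 over both probes and all mice.

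Pnpla2, which encodes ATGL, was at 2.99, 2.96, 2.83 and 2.59 in NZO and at 2.95, 2.87, 3.34 and 2.74 in B6. NZO 011 was the lowest and B6 015 the highest mouse, with overlap between. The difference was -0.13, a fold of 0.911 with a 95% interval from 0.712 to 1.17 (limma, adjusted p = 0.620). It lay between -0.21 without B6 009 and -0.012 without B6 015, and was -0.15 on the slide with both strains. Lipe was at -1.85, -1.55, -1.70 and -1.76 in NZO and at -1.41, -1.95, -1.72 and -1.83 in B6. B6 mice formed both ends of the range, and the difference was 0.01, a fold of 1.01 with an interval from 0.813 to 1.25 (limma, adjusted p = 0.963), and 0.29 on the slide with both strains.

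G0s2, the inhibitor of ATGL, had the largest difference in mean and the largest spread among the members. Its level was 4.12, 2.78, 4.74 and 2.53 in NZO and 3.44, 3.08, 1.84 and 3.02 in B6. NZO 009 and NZO 007 lay above all B6 mice, NZO 003 and NZO 011 lay below 3 of the 4 B6 mice, and B6 015 was the lowest. In scanner units the signal ran from 685 to 3792 in NZO and from 489 to 1729 in B6. The difference was 0.70 ± 0.55 (SE), a 1.62-fold higher mean in NZO with a 95% interval from 0.678 to 3.87, and it missed the threshold (limma, adjusted p = 0.456). Without NZO 009 the difference was 0.30, and without NZO 011 it was 1.03. On the slide with both strains it was 0.32. With a replicate block for the mouse number, which rests on mice 009 and 011 of each strain, it was 0.40. The highest and the lowest G0s2 level in NZO were 4.63-fold apart, and those in B6 3.04-fold. NZO 009 and NZO 011, which formed both ends in NZO, were on the same slide and scanned on the same day. The same pair formed the highest and the lowest NZO level of Plin2, 2.07-fold apart.

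The members differed in how much they varied between mice of a strain. The pooled SD within strains was 0.90 on the log2 scale for G0s2, larger than that of 96.6% of tested probes. It was larger than that of 88.4% for the coding Cidec probe, of 73.7% for Plin4 and of 69.8% for Plin2. The median over all tested probes was 0.23, and that over the 11 member probes 0.22. At the other end, the SD of Plin5 was 0.10 and larger than that of 8.04% of probes, that of the Cideb probes was larger than 9.62% and 17.1%, and that of Plin3 was larger than 15.2%.

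**Figure D3:**
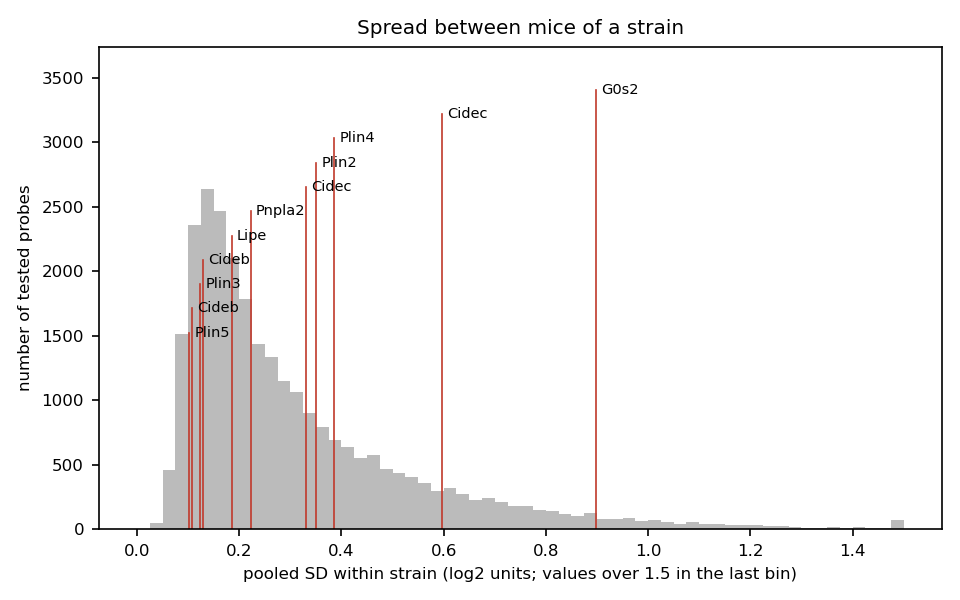
Histogram of the pooled SD within strains over the 27639 tested probes (x axis: SD in log2 units; y axis: number of probes), with a vertical line for each of the 11 member probes, whose height has no meaning. G0s2 lies in the right tail at 0.90, and Plin5, Cideb and Plin3 lie in the left part.

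Other genes of the droplet were taken from 4 lists, each gene read by its brightest tested probe. The lists were chosen with earlier results of these data known, so their counts do not test for an excess over all genes. Among 20156 genes read in this way, 7.03% were higher and 7.24% lower in NZO at an adjusted p of 0.05, and the median difference was 0.03. Of 15 other lipases and cofactors, all tested, 6 were higher and 0 lower in NZO, with a median difference of 0.36, and 5 of the 6 were above background on all 8 arrays. The 6 became 2 without NZO 003 or NZO 009, and 3 without NZO 011, B6 011 or B6 015. Among these were Lipa, the lysosomal acid lipase (1.07, adjusted p = 0.000737), Ces1d, a triglyceride hydrolase (0.98, adjusted p = 0.000548), and Ces1g (0.64, adjusted p = 0.0322; all limma). Lipa was at 4.74, 5.19, 5.05 and 5.06 in NZO and at 3.80, 4.04, 3.89 and 4.03 in B6, without overlap. Pnpla5, a lipase of the ATGL family, is among the 6, but it was above background on only 2 of 4 B6 arrays and was tested through the NZO arrays alone, so its call and its fitted difference of 2.31 rest in part on values at background. Ces1d and Ces1g belong to a cluster of close copies, so which copy their probes read is uncertain. Mgll, which cuts monoglycerides in the step after Lipe, was higher in NZO by 0.53 (limma, adjusted p = 0.0480), and its other tested probes gave 0.59 and 0.52 (adjusted p = 0.0259 and 0.0838). Abhd6, another monoglyceride lipase, which was named after its values were seen, passed with its brighter probe (0.49, adjusted p = 0.0249) and not with the other (-0.10, adjusted p = 0.546; limma). Abhd5, the coactivator of ATGL whose action opposes that of G0s2, did not pass (0.36, limma, adjusted p = 0.309). For Pnpla3, a relative of ATGL, the brightest probe gave 1.08 (limma, adjusted p = 0.119). The other, A_51_P389265, was above background on all 4 NZO arrays and on 1 of 4 B6 arrays. It passed (limma, adjusted p = 0.00448), but its fitted difference of 2.75 rests in part on values at background.

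**Figure D4:**
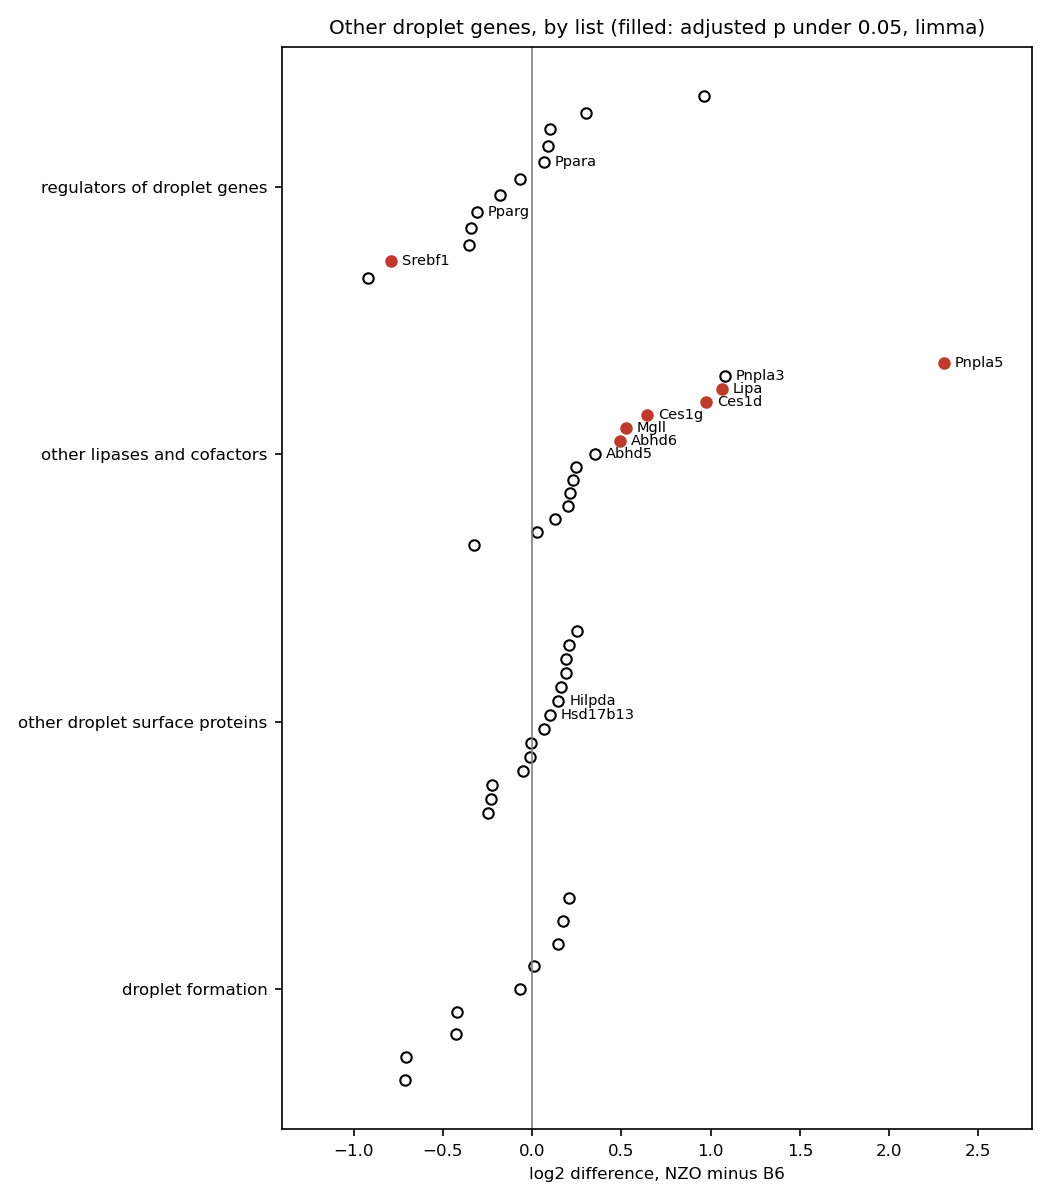
Log2 difference between NZO and B6 (x axis) for the tested genes of 4 lists of droplet genes (y axis), each by its brightest probe; filled points passed an adjusted p of 0.05 (limma). Of the filled points, 6 are among the other lipases and cofactors, at 0.49 to 2.31 (Pnpla5, at background on 2 of 4 B6 arrays), and 1 is Srebf1 among the regulators.

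Of 9 genes of droplet formation, 0 of 9 tested passed, with a median difference of -0.07. Of 18 other surface proteins, 14 were tested and 0 passed, with a median of 0.08. Among them, Hilpda, an inhibitor of ATGL induced by fatty acids, differed by 0.15 (limma, adjusted p = 0.582), and Hsd17b13, a droplet protein of hepatocytes, by 0.10 (limma, adjusted p = 0.676). A dimmer probe of Hsd17b13, A_55_P2076555, was not well above background on any NZO array and at least 2.01-fold higher in B6 (limma, adjusted p = 0.0116). It was tested through the B6 arrays alone, where it was dim. Plin1, the perilipin of adipocytes, was not well above background on any of the 8 arrays. Of 12 regulators, all tested, 1 was lower and 0 higher in NZO, with a median of -0.12. This was Srebf1, a regulator of fatty acid synthesis (-0.79, limma, adjusted p = 0.0159). Ppara, which drives Plin2, Plin5 and G0s2 in liver, differed by 0.06 and Pparg, which drives Cidec in fatty liver, by -0.31, and both missed the threshold (limma, adjusted p = 0.837 and 0.437). The other probes of Ppara gave 0.39 and 0.23 (limma, adjusted p = 0.183 and 0.265), and those of Abhd5 gave 0.29 and 0.06 (adjusted p = 0.447 and 0.904).

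Because Plin2 is a known PPAR target, the RefSeq promoter windows (GRCm38.p6, from 250 bases before to 50 bases after the start site) were searched on both strands for a direct repeat of AGGTCA with 1 base of any kind between the copies, allowing 2 mismatches in its 12 bases. Windows of 9 of the 10 genes were examined, 12 windows in all, and 1 of these held a match, that of Plin2. Cidea was left out of this count, so whether its promoter holds a match is not stated. Over all 32851 windows, 3.86% held a match. The match starts at base -225 from the start site of this window (base 86670059 of chromosome 4), which lies inside the RefSeq span of the gene, and 67 bases before the outer end of that span. It reads on the opposite strand to the gene. It is printed in capitals within chr4:86670249-86670308, in the direction of the gene.
Plin2 promoter: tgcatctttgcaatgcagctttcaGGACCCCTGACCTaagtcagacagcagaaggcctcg
A match describes letters only, and binding was not measured.

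The tissue was checked with markers of hepatocytes and of other cells. Of 5 hepatocyte markers (Alb, Ttr, Apoa1, Cps1 and Tat), 5 were well above background on all arrays and 0 passed the test between the strains. In bulk liver, fewer cells of a type and less RNA per cell cannot be told apart. Plin4, Cidec and Lipe are abundant in adipocytes, and of the 8 white adipocyte markers Adipoq, Lep and Plin1 were not above background on any array. Fabp4 was above background on all 8 arrays (-0.30, limma, adjusted p = 0.241), and Cfd and Retn on 4 and 3 of them. The summed signal of the 8, as a multiple of the 75th percentile, was 606, 565, 644 and 575 in NZO and 416, 412, 428 and 485 in B6, and most of it came from Car3, which hepatocytes also express (0.47, limma, adjusted p = 0.0133). Of this list, 1 was higher (Car3) and 1 lower in NZO, Adrb3. The brighter Adrb3 probe was not above background on any NZO array and at least 50.3-fold higher in B6 (limma, adjusted p = 1.9e-06). This probe was tested through the B6 arrays alone. The other, A_55_P2105685, was above background on 1 of 4 NZO arrays and on all 4 B6 arrays. It passed as well (limma, adjusted p = 0.000784), with a fitted difference of -2.33 that rests in part on values at background.

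Plin4 and Plin5 are also expressed in skeletal muscle. The summed signal of Ckm, Acta1, Myh4 and Tnnt3 was 17.7, 0.136, 0.161 and 0.302 in NZO and 0.957, 5.70, 1.40 and 0.396 in B6, with the highest mean signal from Myh4, so that NZO 007 and B6 010 stood out. NZO 007 had the lowest Plin5 level of the NZO mice, and the Plin5 difference was 0.40 without it and 0.34 without B6 010. B6 010 had the highest Plin4 level of the B6 mice, and the Plin4 difference was -0.23 without NZO 007 and -0.14 without B6 010. Macrophages express Plin2. Of 5 Kupffer cell and macrophage markers, each by its brightest probe, 3 were lower in NZO (Clec4f, Adgre1 and Cd68) and 0 higher. Lyz2 differed by 0.41 (limma, adjusted p = 0.109). The other probes of Adgre1 and Cd68 gave -0.60 and -0.25 (limma, adjusted p = 0.0485 and 0.485). Csf1r gave -0.51 by its brightest probe and -0.80 and -0.48 by the others (limma, adjusted p = 0.174, 0.00228 and 0.0959). The summed signal of the 5 markers was 68.1, 64.4, 50.7 and 55.9 in NZO and 99.5, 87.8, 124 and 76.5 in B6. The highest mean signal came from Csf1r. Of 4 red blood cell markers, 2 were higher in NZO (Hba-a1 and Alas2), and the sum of the 4 was 366, 318, 470 and 293 in NZO and 208, 165, 155 and 197 in B6, with the highest mean signal from Hba-a1. The part of these cells in the levels of the members was not tested.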

How the data were processed

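For each of the 8 arrays, the authors deposited scanner output, with intensity values made by Agilent Feature Extraction (11.0.1.1 per the file headers, 9.1 per the submitters' processing notes), and a table whose values equalled the raw median intensity on each array (all 59305 spots, within 0.01). The processed signal, already corrected for background by the scanner software, was used. Spots of control probes were dropped, as were 96 to 137 spots per array marked as outliers, log2 was taken, the 75th percentile of the array was subtracted and spots of a probe were averaged. Between 50.4% and 60.1% of spots were well above background. Probes that 1 strain or both had above background on each of its 4 arrays were tested with limma 3.58.1 in R 4.3.3 without a block, and p-values were adjusted after Benjamini-Hochberg over 27639 probes. The fit was tested on simulated data with planted changes. Tables and plots were made with Python 3.11.15, pandas 2.3.3 and matplotlib 3.10.9. The labels give 1 mouse per array, so the spread is that between mice. All 10 genes were named with each probe, along with genes of the 4 lists past the adjusted threshold (at most 4 per list) and Plin1, Abhd5, Mgll, Pnpla3, Hilpda, Hsd17b13, Ppara and Pparg whatever the test. Members and lists were chosen with earlier results of these data known. A bound sets each dim array at its own level or, if higher, at the lowest level above background on that array. Mouse numbers 009 and 011 occur in both strains, but deviations from the strain means of the same number correlated at -0.26 and -0.0041 over probes, so the numbers were not taken to pair mice. Sequences and positions of genes came from RefSeq. Alternatives covered the background correction, scaling, filter, slide, scan day, replicate block, the methods' t-test and leaving out each mouse. Markers of sinusoidal endothelial cells, stellate cells, brown adipocytes and exocrine pancreas are given in the closing section.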

Additional observations from a re-analysis of the deposited data

Results flagged for a closer look

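Among 46 groups of 4 mice, each strain for each of the tested member probes and the named droplet genes, 1 held a value far from the others. Hilpda was at -0.22 in B6 015, while the other B6 mice lay between 0.11 and 0.18. The gap relative to the range of the group was just above the critical value of Dixon's test for 4 samples. Chance alone flags about 5% of such groups.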

How the results depend on the processing

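Each of the 11 member probes was recomputed under 22 alternatives. Of the 242 values, 226 kept direction and side of the threshold, 2 passed it (Plin5, as given above) and 14 changed sign, none of them past the threshold. The other filters, the methods' t-test and the methods' thresholds keep the main difference, so a sign could not change there. The slide as a fixed term and the slide with both strains share 1 estimate, from NZO 003, B6 010 and B6 015, but were counted as separate alternatives. Plin3 came to 0.0043 in this shared estimate. Plin4 came to 0.30 with the mouse number as a replicate block and to 0.021 without NZO 003 (from -0.37 to 0.021 when each mouse was left out). The Cideb probes came to -0.078 and -0.0076 with quantile normalization and to -0.093 and -0.056 with the replicate block. The coding Cidec probe came to -0.018 without B6 009 (from -0.018 to 0.52 when each mouse was left out). Lipe came to -0.026 with the percentile over probes above background on all arrays, to -0.11 with the replicate block, to -0.043 without NZO 003, to -0.062 without B6 010 and to -0.020 without B6 009 (from -0.062 to 0.12 when each mouse was left out). The cause was not tested. The count of member probes higher in NZO was 1 when only probes above background on all 8 arrays were tested, and from 0 to 1 when each mouse was left out, the 1 coming without NZO 007. Over all probes, 1873 were higher and 2057 lower in NZO. These counts were 497 and 984 when the slide was a fixed term, 276 and 650 on the slide with both strains (3 arrays), 72 and 134 with the replicate block, which has fewer degrees of freedom, and 1193 were lower in the methods' t-test after adjustment, which put 2900 probes past the thresholds of the methods against 3382 in limma. No member probe passed with the replicate block, whose estimates rest only on the mouse numbers found in both strains, 009 and 011. Of the other droplet genes, 6 were higher and 1 was lower. Leaving out each mouse gave from 2 to 5 higher and from 1 to 3 lower, with 2 higher without NZO 003 or NZO 009, 3 higher without NZO 011, B6 011 or B6 015, and 3 lower without B6 011. Lower genes numbered 3 with normexp, 2 with quantile normalization and 2 when the tested probes of a gene were averaged. The number of arrays, 4 per strain, limits the precision.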

Other observations

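Of 5 stellate cell markers, 1 was lower in NZO (Pdgfrb, -0.996) and 0 were higher, and of 4 sinusoidal endothelial cell markers, Lyve1 was lower (-0.62; limma, adjusted p = 0.0241). The probes of Stab2 disagree: the brightest, A_55_P1974028, was higher in NZO (0.48, limma, adjusted p = 0.00889), while A_55_P2026492 and A_55_P2026487 gave -0.93 and -0.44 (adjusted p = 0.0508 and 0.480). Of 4 brown adipocyte markers, Ucp1 was not above background on any array and 1 was tested and lower in NZO, Cox7a1 (-0.72). Of 6 exocrine pancreas markers, 4 were not above background on any array and 0 of 2 tested passed.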
